A study of Mus musculus with 8 samples.

Results

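The 3 COUP-TF orphan nuclear receptor genes, Nr2f1, Nr2f2 and Nr2f6, were followed in the uterus at gestation day 3.5 (GD3.5). They were selected by gene symbol and are 3 of the 24963 genes listed in the table of mRNA levels. The controls were 4 mice with the floxed Nr2f2 allele and no Cre (Nr2f2 f/f). The mutants were 4 mice called Nr2f2 d/d, of the genotype Pgr Cre/+; Nr2f2 f/f, whose Cre sits in 1 Pgr allele and deletes Nr2f2 in cells that express the progesterone receptor. Each mouse gave 1 library of whole uterus. All 8 mice carried the floxed allele, and the labels give their strain as C57B6/J and their age at mating as 8 weeks. The methods of the study state that the males were vasectomized and the females 2 to 3 months of age. Loss of Nr2f2 and loss of 1 Pgr allele go together in this design, and their effects cannot be told apart.

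COUP-TFs are orphan members of the NR2 subfamily of nuclear receptors. They bind DNA as dimers at repeats of the half-site AGGTCA and often act as repressors of transcription. Nr2f1 encodes COUP-TFI, best known from patterning of the developing cortex and eye. Nr2f2 encodes COUP-TFII, a factor of vein identity that in the uterus marks stroma and smooth muscle and is needed for implantation. Nr2f6 encodes EAR2, the most distant of the 3 and best known as a brake on T cell cytokine genes.

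The 3 genes moved in different ways in the Nr2f2 d/d uterus. Nr2f1 mRNA rose 2.56-fold between the group means, from 0.936 ± 0.0797 to 2.40 ± 0.474 FPKM (SD, n = 4 each). FPKM are fragments scaled by gene length and library total, so levels of different genes can be compared per length. Nr2f2 mRNA fell by 15.1 FPKM, to 37.1% of its Nr2f2 f/f mean. Nr2f6 mRNA was 40.3 ± 5.03 FPKM in Nr2f2 f/f against 46.3 ± 4.62 FPKM in Nr2f2 d/d (SD, n = 4 each), and that difference did not pass the test. All 3 genes were among the 14323 genes whose mean reached 0.5 FPKM and that were tested with limma, and the Nr2f1 mean was above that limit in both groups. Of the 3, 2 passed an adjusted p of 0.05, Nr2f1 as higher and Nr2f2 as lower. Of all tested genes 2.62% passed, 1.09% as higher and 1.53% as lower. The same 2 passed the rule of the study's methods, an unadjusted p under 0.05 with a fold change of at least 1.4, which 8.8% of all tested genes met, 4.7% as higher and 4.1% as lower.

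In Nr2f2 f/f uteri, Nr2f1 was at 1.02, 0.970, 0.920 and 0.834 FPKM in replicates 1 to 4. The Nr2f2 d/d uteri held 1.87, 2.72, 2.86 and 2.13 FPKM. The lowest Nr2f2 d/d uterus lay above the highest Nr2f2 f/f uterus, and the spread within Nr2f2 d/d was the wider, with replicates 2 and 3 above replicates 1 and 4. After 0.5 FPKM was added, the log2 fold change was 1.00 (standard error 0.132, 95% interval 0.70 to 1.30, limma adjusted p = 0.0149). The exact permutation p over the 8 libraries was 0.0286, the smallest that 4 against 4 allows. FPKM of 15.4% of all tested genes did not overlap between the groups, 5.49% with Nr2f2 d/d higher and 9.91% with Nr2f2 d/d lower. Leaving out each library in turn gave Nr2f1 log2 fold changes of 0.92 to 1.09, and the gene passed an adjusted p of 0.05 in 7 of 8 fits. The exception was the fit without Nr2f2 d/d replicate 2 (limma adjusted p = 0.0636).

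Nr2f2 was the gene targeted for deletion, and its level checks the labels. Replicates 1 to 4 of Nr2f2 f/f held 25.3, 21.8, 25.7 and 23.5 FPKM of it. Those of Nr2f2 d/d held 9.66, 9.42, 6.90 and 9.74 FPKM. The groups were far apart, and within Nr2f2 d/d replicate 3 stood below the other three. The log2 fold change was -1.39 (95% interval -1.66 to -1.12, limma adjusted p = 0.00549), and 3 of the 14323 genes had a smaller p. It was past the adjusted threshold in 8 of 8 fits that left out 1 library. The values cover the entire gene, and the sources used here do not say which exons the floxed allele removes, so fragments from any retained part count towards the remaining level. In whole tissue, fewer cells that express a gene and less of its mRNA per cell cannot be told apart.

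Nr2f6 held 44.3, 33.0, 42.0 and 42.1 FPKM in Nr2f2 f/f replicates 1 to 4, against 45.5, 51.1, 40.2 and 48.2 FPKM in Nr2f2 d/d. The groups overlapped, with 3 Nr2f2 d/d uteri above all Nr2f2 f/f uteri and replicate 3 inside their range. The log2 fold change was 0.20 (95% interval -0.06 to 0.46, limma adjusted p = 0.347, exact permutation p = 0.171). On the FPKM + 0.5 scale this interval runs from 0.959-fold to 1.38-fold, so a doubling such as that of Nr2f1 lies outside it.

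**Figure D1:**
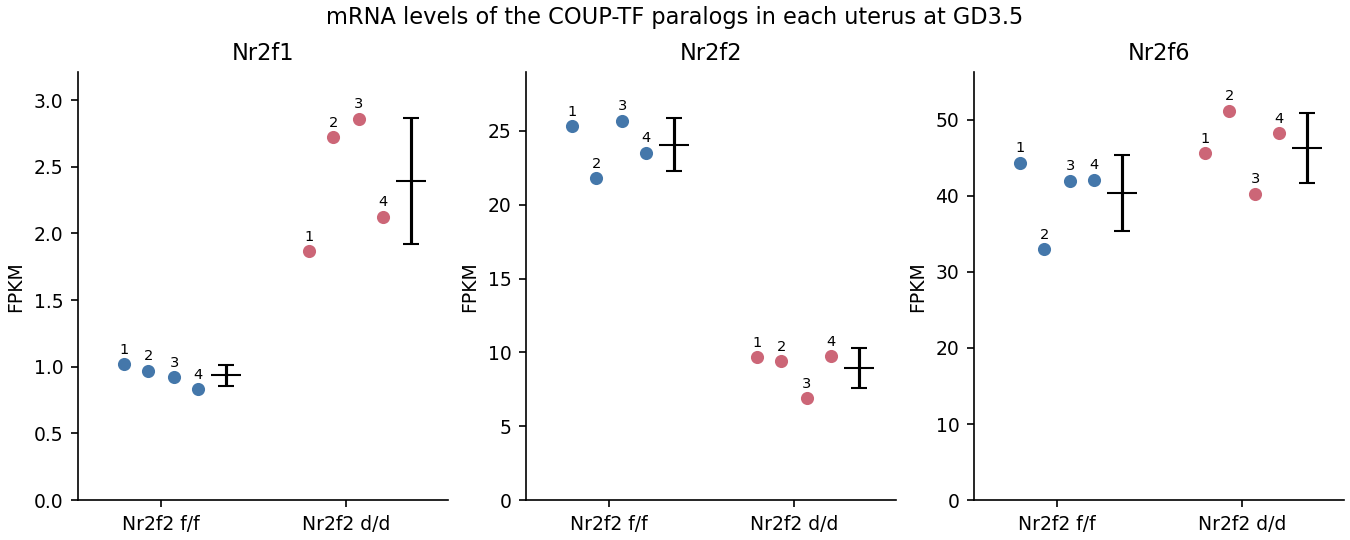
FPKM of Nr2f1, Nr2f2 and Nr2f6 (vertical axes, each from 0) in the 4 Nr2f2 f/f and 4 Nr2f2 d/d uteri. Points are single libraries with their replicate number, and the bar beside them is the mean with its SD. The Nr2f1 points of Nr2f2 d/d lie above 1.8 FPKM and those of Nr2f2 f/f below 1.1 FPKM, the Nr2f2 points part the other way, and the Nr2f6 points overlap.

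Because FPKM are scaled to gene length, the 3 levels can be set side by side within a library. For Nr2f6 this is less sure, since 54.4% of its exon bases are shared with the gene Ocel1 on the opposite strand. The strand setting of the counting is not given in the sources used here. This limit applies to the order, ratios and shares of Nr2f6 below. In Nr2f2 f/f the order was Nr2f6, Nr2f2, Nr2f1 in every library, and the same order held in every Nr2f2 d/d library. The mean level of Nr2f6 over all 8 libraries was above that of 90.8% of tested genes, that of Nr2f2 above 71.3% and that of Nr2f1 above 14.3%. The Nr2f2 f/f mean of Nr2f2 was 25.7 times that of Nr2f1, and in Nr2f2 d/d it was 3.73 times.

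The change of each gene relative to another was tested on the log2 ratio of their FPKM within each library, for the 3 possible pairs. Nr2f1 over Nr2f2 was 0.0355 to 0.0445 in Nr2f2 f/f against 0.193 to 0.415 in Nr2f2 d/d, a difference of 2.78 on the log2 scale (exact permutation p = 0.0286). Nr2f6 over Nr2f2 was 1.51 to 1.79 in Nr2f2 f/f against 4.71 to 5.83 in Nr2f2 d/d, a difference of 1.64 (exact permutation p = 0.0286). Nr2f6 over Nr2f1 went from between 34.0 and 50.5 down to between 14.1 and 24.4, a difference of -1.14 (exact permutation p = 0.0286). No ratio overlapped between the groups. The 2 ratios over Nr2f2 carry the fall of the deleted gene itself and say nothing of Nr2f1 or Nr2f6 on their own. Nr2f6 over Nr2f1 is the one without it.

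In absolute terms the gain of Nr2f1 was small beside the loss of Nr2f2. Nr2f1 gained 1.46 FPKM, which is 9.64% of the 15.1 FPKM by which Nr2f2 fell. Nr2f1 plus Nr2f2 together stood at 25.0 ± 1.81 FPKM in Nr2f2 f/f against 11.3 ± 1.07 FPKM in Nr2f2 d/d (SD, n = 4 each), 45.3% of the Nr2f2 f/f mean. Nr2f1 made up 3.42% to 4.26% of that pair in the Nr2f2 f/f libraries. Its share in Nr2f2 d/d replicates 1 to 4 was 16.2%, 22.4%, 29.3% and 17.9%. The largest share was in replicate 3, the library with the lowest Nr2f2 and the highest Nr2f1. Over all 3 genes the sum was 65.3 ± 6.64 FPKM in Nr2f2 f/f against 57.6 ± 5.66 FPKM in Nr2f2 d/d (SD, n = 4 each), with overlapping groups. Nr2f6 supplied 59.2% to 63.3% of that sum in Nr2f2 f/f against 79.8% to 80.8% in Nr2f2 d/d.

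**Figure D2:**
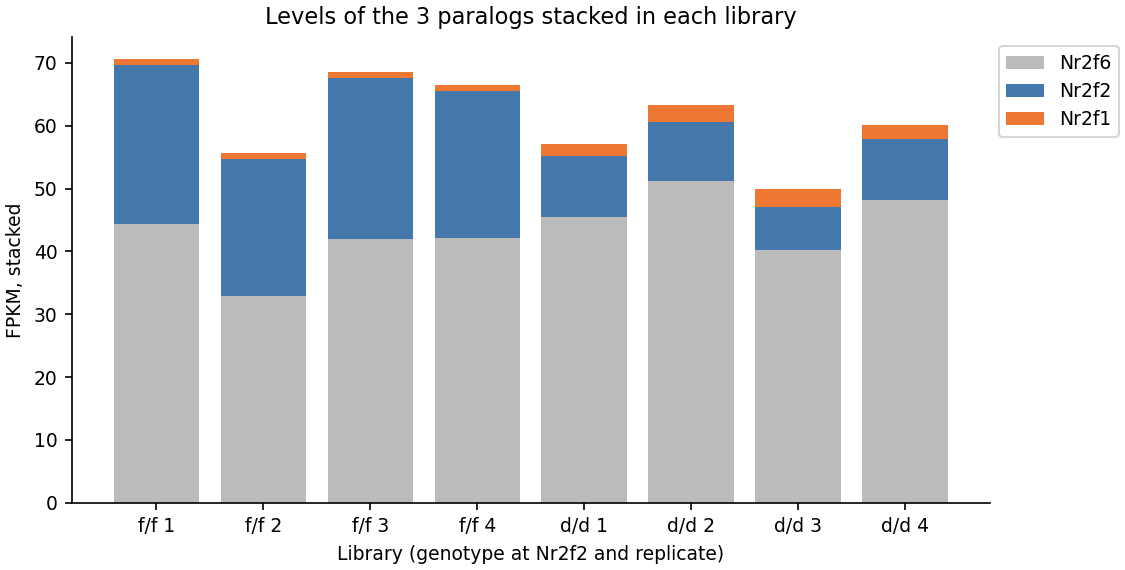
FPKM of Nr2f6, Nr2f2 and Nr2f1 stacked in each of the 8 libraries (horizontal axis, genotype and replicate number). The Nr2f2 segment shrinks from 21.8 FPKM or more in Nr2f2 f/f to 9.74 FPKM or less in Nr2f2 d/d, and the thin Nr2f1 segment grows without filling the gap.

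The deposited FPKM were turned into approximate fragment numbers. Library totals were recovered from 1300 genes of 1 exon and 50 to 150 bases, of whose low FPKM 90.3% to 93.2% became whole fragments, within 0.05, at 1 total per library. Intervals and fragment numbers from these totals cover counting error only. The totals were 61250000 to 92750000 fragments, and the median was higher in Nr2f2 d/d (80725000 against 62175000). With the exon length of GENCODE vM21, Nr2f1 rests on about 260 to 365 fragments in an Nr2f2 f/f library and 586 to 1352 in an Nr2f2 d/d library. Counting alone then gives a coefficient of variation of 5.24% to 6.2% in Nr2f2 f/f against 2.72% to 4.13% in Nr2f2 d/d. The measured ones, which also hold the differences between mice, were 8.51% and 19.8%. Nr2f2 rests on at least 5134 fragments and Nr2f6 on at least 6027 in every library. The exon lengths behind the deposited FPKM are not given in the sources used here.

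Paralogs can exchange fragments where their transcripts are alike, so the sequences were compared. The coding sequences of Nr2f1 and Nr2f2 were identical at 83.6% of 1224 aligned bases, those of Nr2f1 and Nr2f6 at 74.8%, and those of Nr2f2 and Nr2f6 at 71.8% (GENCODE vM21 transcripts). No stretch of 76 bases, the length of 1 read, was shared by the annotated transcripts of any pair. The longest identical stretch joined Nr2f1 and Nr2f2, at 59 bases, and codes for part of the DNA-binding domain. It lies on the minus strand of mm10 at chr13:78198284-78198342 in a coding exon of Nr2f1 and at chr7:70360052-70360110 in a coding exon of Nr2f2. It is shown because it is where the 2 mRNAs are hardest to tell apart, and its capitals mark the 23 bases that Nr2f6 transcripts share as well, their longest run in common with either paralog.
Nr2f1 and Nr2f2 coding sequence: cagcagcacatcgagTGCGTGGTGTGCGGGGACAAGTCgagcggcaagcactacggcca

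Nr2f1 lies on chromosome 13 from 78188973 to 78199757, Nr2f2 on chromosome 7 from 70351944 to 70366735 and Nr2f6 on chromosome 8 from 71374123 to 71381960, by GENCODE vM21 on mm10, each transcribed from the minus strand. The promoters, from 250 bases before to 50 bases after the RefSeq start, were searched for the half-sites AGGTCA and GGGTCA and for the GC box GGGCGG on both strands, since COUP-TFs bind the first and also act at GC boxes through Sp1. Of 32817 promoters of this length, 27.5% held either half-site and 35.6% a GC box. The promoter of Nr2f6, at 82.7% G and C the richest of the 3, had 1 GGGTCA, at position -148 from the start site, and 7 matches of the GC box. The promoter of Nr2f1 printed below had no half-site and 1 GC box, and that of Nr2f2 had neither. A second listed promoter of Nr2f1, at chr13:78196400-78196699, also had neither and is not printed. Which of these 2 starts is used in these uteri was not tested. No match says only that these letters are not in this window. The promoters are printed because the estimates of the 3 genes differed in size and direction, with half-sites in capitals (RefSeq, GRCm38.p6, minus strand).
Nr2f1 promoter, chr13:78198824-78199123: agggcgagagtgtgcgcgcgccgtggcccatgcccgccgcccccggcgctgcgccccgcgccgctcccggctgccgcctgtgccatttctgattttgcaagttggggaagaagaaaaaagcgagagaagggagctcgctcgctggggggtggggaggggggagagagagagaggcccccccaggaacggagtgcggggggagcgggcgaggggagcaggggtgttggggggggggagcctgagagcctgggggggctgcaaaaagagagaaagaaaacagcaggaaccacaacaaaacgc
Nr2f2 promoter, chr7:70366697-70366996: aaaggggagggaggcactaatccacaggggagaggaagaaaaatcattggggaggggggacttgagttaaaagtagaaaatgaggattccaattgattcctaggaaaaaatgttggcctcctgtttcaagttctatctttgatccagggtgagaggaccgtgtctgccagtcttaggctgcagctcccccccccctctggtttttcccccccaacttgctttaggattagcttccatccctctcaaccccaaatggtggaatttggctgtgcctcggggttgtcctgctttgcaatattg
Nr2f6 promoter, chr8:71381903-71382202: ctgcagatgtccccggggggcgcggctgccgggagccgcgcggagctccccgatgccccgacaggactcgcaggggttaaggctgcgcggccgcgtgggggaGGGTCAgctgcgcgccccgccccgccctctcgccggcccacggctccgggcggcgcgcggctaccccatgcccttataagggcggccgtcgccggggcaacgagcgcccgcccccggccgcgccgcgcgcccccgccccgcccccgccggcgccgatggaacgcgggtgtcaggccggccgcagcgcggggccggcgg

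Each of the 3 genes shares exon bases with a gene on the opposite strand. The libraries were made with a kit that does not mark strand, so fragments from the shared bases cannot be assigned by strand. A830082K12Rik, an antisense RNA that starts inside Nr2f1, covers 2.4% of the Nr2f1 exon bases. It was at 0.206 to 0.378 FPKM in Nr2f2 f/f against 0.253 to 0.371 FPKM in Nr2f2 d/d, below the level needed for a test, and showed no separation of the groups. The non-coding gene B130024G19Rik covers 7.5% of the Nr2f2 exon bases. It held 9.26 ± 0.846 FPKM in Nr2f2 f/f against 8.43 ± 1.46 FPKM in Nr2f2 d/d (SD, n = 4 each), and the log2 fold change was -0.14 (95% interval -0.44 to 0.16, limma adjusted p = 0.577). That interval leaves out the fall of Nr2f2.

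Ocel1 covers 54.4% of the Nr2f6 exon bases, the largest overlap of the 3. Its own level was 7.72 ± 1.92 FPKM in Nr2f2 f/f against 8.77 ± 0.708 FPKM in Nr2f2 d/d (SD, n = 4 each), with overlapping groups (log2 fold change 0.20, limma adjusted p = 0.501). None of the 7 nearest other genes that could be tested passed an adjusted p of 0.05. Next to Nr2f2, the non-coding gene Gm29683 had a log2 fold change of 0.53 (limma adjusted p = 0.186). Next to Nr2f1, at 22738 bases, Fam172a had 0.02 (0.894). Arrdc3, an arrestin family gene, is the nearest listed gene on the other side of Nr2f1, but 2683627 bases away. It had -0.43 (0.429). Next to Nr2f6, Ushbp1 had -0.65 (limma adjusted p = 0.109) with every Nr2f2 d/d uterus below every Nr2f2 f/f uterus, and Use1, Babam1 and Myo9b had 0.04, 0.01 and 0.17 (adjusted p of 0.547 or above). Of the remaining neighbours, 5 were below the level needed for a test, and 4930441H08Rik and Gm36633 among them are listed at 0 in all 8 libraries.

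**Figure D3:**
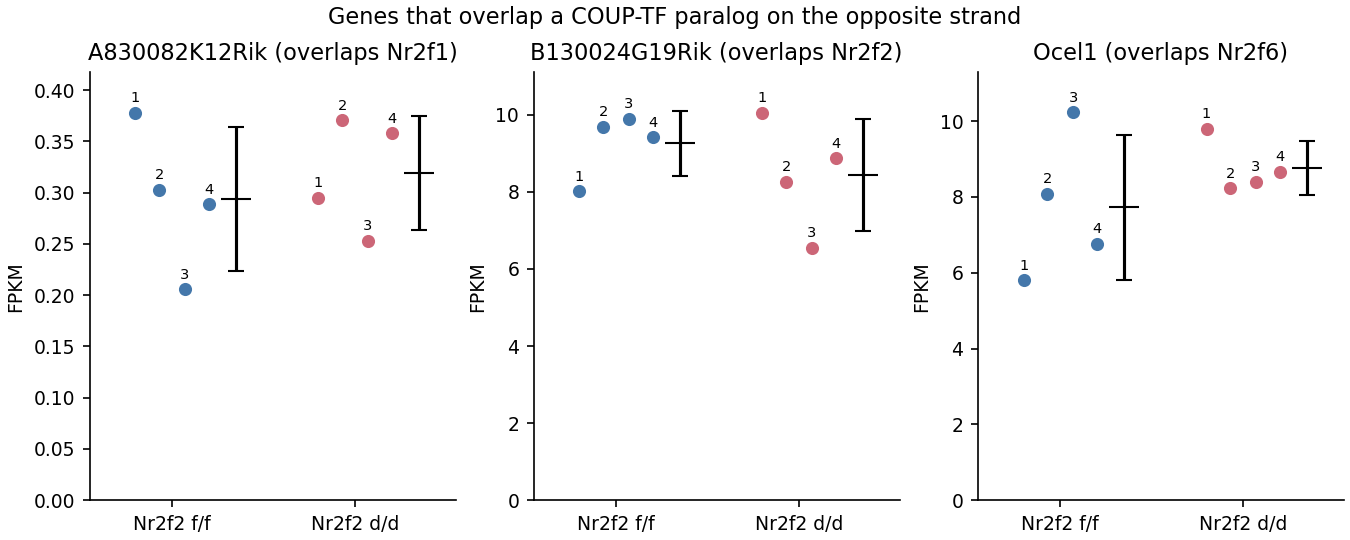
FPKM (vertical axes, each from 0) of A830082K12Rik, B130024G19Rik and Ocel1, the genes that overlap Nr2f1, Nr2f2 and Nr2f6 on the opposite strand. Points are single libraries with their replicate number and the bar is the mean with its SD. The groups overlap in all 3 panels.

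Further genes of the NR2 subfamily were read beside the paralogs. Of 9 listed relatives 4 were tested, and 0 passed an adjusted p of 0.05 in limma, with 1 at an unadjusted p under 0.05, which 21.2% of all tested genes had (8.66% higher and 12.5% lower). That one was Nr2c2, which encodes the orphan receptor TR4, at 3.02 ± 0.125 FPKM in Nr2f2 f/f against 2.05 ± 0.389 FPKM in Nr2f2 d/d (SD, n = 4 each, log2 fold change -0.48, limma adjusted p = 0.0737). Rxrb, a retinoid X receptor gene, had a log2 fold change of -0.16 (0.311) and Nr2c1, which encodes TR2, 0.02 (0.927). Rxra, another retinoid X receptor gene, had group means of 11.4 and 11.5 FPKM. Nr2e1, Nr2e3, Rxrg, Hnf4a and Hnf4g were below the level needed for a test, and Nr2e1 is listed at 0 in all libraries.

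Among 12 tested genes of COUP-TF partners and corepressors, 0 passed an adjusted p of 0.05 in limma and 4 had an unadjusted p under 0.05, 1 higher and 3 lower, against 21.2% of all tested genes. Their median log2 fold change was -0.00378, against -0.0191 over all genes tested. The smallest p-values were those of the coactivator gene Ncoa1 (-0.22, adjusted p = 0.113), the corepressor gene Sin3a (-0.23, adjusted p = 0.150) and the histone acetyltransferase gene Ep300 (-0.29, adjusted p = 0.163), all from limma. The higher one was Zfpm1, which encodes FOG1 (0.29, limma adjusted p = 0.187). Zfpm2, which encodes the COUP-TFII partner FOG2, was at 1.09 ± 0.231 and 1.13 ± 0.138 FPKM in Nr2f2 f/f and Nr2f2 d/d (SD, n = 4 each).

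In the uterus, epithelial Indian hedgehog acts on stromal Ptch1, and Nr2f2 stands between this signal and stromal BMP2. Of 15 tested genes of this route, 1 passed an adjusted p of 0.05, which is Hand2, lower in Nr2f2 d/d, and 6 had an unadjusted p under 0.05, 2 higher and 4 lower, against 2.62% and 21.2% of all tested genes. The median log2 fold change was -0.137. Hand2, a stromal transcription factor gene, was at 46.6 to 57.7 FPKM in Nr2f2 f/f uteri and 23.8 to 36.6 FPKM in Nr2f2 d/d (log2 fold change -0.71, limma adjusted p = 0.0388), and it passed in 2 of the 8 fits that left out 1 library, those without Nr2f2 d/d replicate 3 or 4. Ptch1, the hedgehog receptor gene, was at 35.4, 22.1, 23.8 and 20.3 FPKM in Nr2f2 f/f against 10.5, 10.7, 5.90 and 17.8 FPKM in Nr2f2 d/d. Those groups did not overlap, and Nr2f2 d/d replicate 3 was the lowest for Ptch1 as it was for Nr2f2 (log2 fold change -1.20, limma adjusted p = 0.0792). Esr1, the estrogen receptor gene, had a log2 fold change of 0.31 (limma adjusted p = 0.151).

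Pgr, the gene that drives the Cre, was at 17.5, 11.4, 26.0 and 22.2 FPKM in Nr2f2 f/f against 33.9, 27.1, 23.8 and 20.7 FPKM in Nr2f2 d/d. The groups overlapped, and no fall of Pgr mRNA was seen (log2 fold change 0.48, 95% interval -0.10 to 1.07, limma adjusted p = 0.318). This is mRNA of the whole uterus. The study itself reports, from immunostaining, less PGR protein in the stroma of Nr2f2 d/d uteri, which these values do not measure. Bmp2 was at 1.51 ± 0.198 FPKM in Nr2f2 f/f against 2.60 ± 0.925 FPKM in Nr2f2 d/d (SD, n = 4 each, log2 fold change 0.58, limma adjusted p = 0.165).

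COUP-TFII is known in vessels for repressing arterial genes in veins and for sustaining lymphatic genes. Of 15 tested genes of that kind, 1 passed an adjusted p of 0.05, and 7 had an unadjusted p under 0.05, 2 higher and 5 lower, against 2.62% and 21.2% of all tested genes. Their median log2 fold change was -0.221. The called gene was Nrp2, a co-receptor of lymphatic growth factors, at 5.07, 5.39, 4.86 and 5.09 FPKM in Nr2f2 f/f against 3.04, 2.95, 3.12 and 3.19 FPKM in Nr2f2 d/d. All 4 Nr2f2 d/d uteri were lower, within a narrow range (log2 fold change -0.65, limma adjusted p = 0.00795). Tek, the angiopoietin receptor gene, had a log2 fold change of -0.74 (limma adjusted p = 0.0654) and Foxc1, a forkhead factor gene, 0.71 (limma adjusted p = 0.0858). General endothelial markers moved with Nrp2 and Tek: 9 of 10, Tek among them, had lower estimates, 6 were called lower (0 to 6 with 1 library left out), and their median log2 fold change was -0.733. Their part in the levels of Nrp2 and Tek was not tested.

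COUP-TFs also interfere with retinoic acid receptors at shared sites. Of 12 tested genes of retinoic acid signalling, 0 passed an adjusted p of 0.05 in limma, and 3 had an unadjusted p under 0.05, all higher in Nr2f2 d/d. In total the count is near the 21.2% of all tested genes with such a p. Of all tested genes, 8.66% had it as higher and 12.5% as lower. The median log2 fold change was 0.315. Cyp26b1, which encodes an enzyme that clears retinoic acid, was at 0.460 to 2.18 FPKM in Nr2f2 f/f against 2.26 to 4.88 FPKM in Nr2f2 d/d (log2 fold change 1.38, limma adjusted p = 0.0761). Cyp26a1, which encodes an enzyme of the same kind, had the opposite sign, at 242, 247, 10.1 and 12.2 FPKM in Nr2f2 f/f replicates and 7.30, 7.81, 2.91 and 58.9 FPKM in Nr2f2 d/d, with overlapping groups and a wide spread (log2 fold change -2.32, limma adjusted p = 0.348). In all, 8 of the 12 had higher and 4 lower estimates. Crabp2, which encodes a carrier of retinoic acid to the nucleus, was below 0.6 FPKM in all Nr2f2 f/f uteri and at 18.0, 3.83, 21.2 and 0.710 FPKM in Nr2f2 d/d. The Nr2f2 d/d uteri ranged widely for Crabp2, and replicates 1 and 3 were the high ones, which is not the order of Nr2f1 (log2 fold change 3.01, limma adjusted p = 0.0998). Rara, a retinoic acid receptor gene, had a log2 fold change of 0.26 (limma adjusted p = 0.165).

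**Figure D4:**
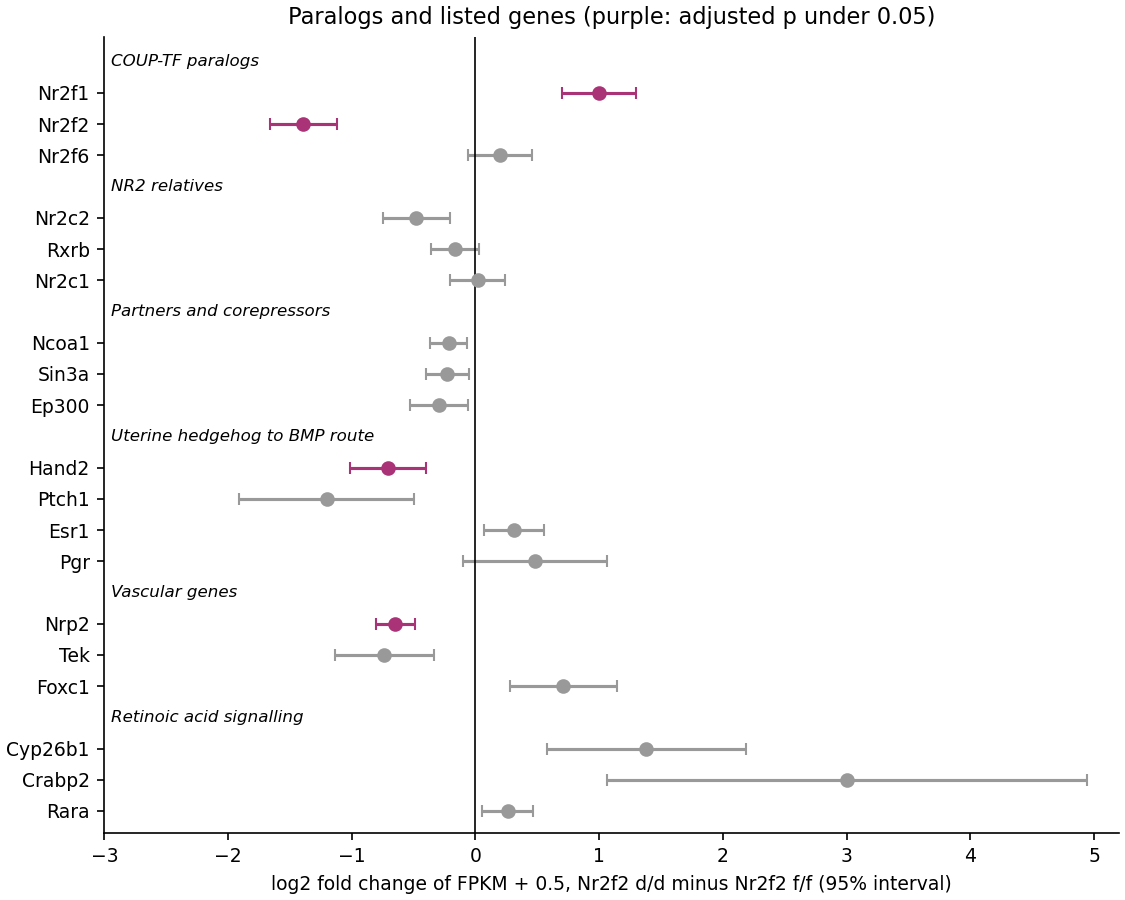
Log2 fold change of FPKM + 0.5, Nr2f2 d/d minus Nr2f2 f/f (horizontal axis), for the 3 paralogs, Pgr and the 3 genes with the smallest p in each list of related genes. Points are limma estimates with 95% intervals, and purple marks an adjusted p under 0.05. Nr2f1 stands on the higher side, Nr2f2, Hand2 and Nrp2 stand on the lower side, and the interval of Nr2f6 reaches across 0.

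The genes most like each paralog were sought among all tested genes by Pearson's r of log2 values over the 8 libraries, given as a description, since the points fall into 2 groups and share their library. For Nr2f1 these were Tbc1d10a (r = 0.978), Adamts3 (0.971) and Pxdc1 (0.969). Adamts3, which encodes a protease that processes the lymphatic growth factor VEGFC, was at 0.902 ± 0.0697 FPKM in Nr2f2 f/f uteri and 1.67 ± 0.117 FPKM in Nr2f2 d/d (SD, n = 4 each). For Nr2f2 they were Pus7 (0.989), a pseudouridine synthase gene, Adora2b (0.984), an adenosine receptor gene, and Gpc6 (0.981), a glypican gene. Adora2b was at 1.29 to 1.54 FPKM in Nr2f2 f/f uteri and 0.380 to 0.492 FPKM in Nr2f2 d/d. For Nr2f6 they were Alas1 (0.975), Tbcb (0.973) and Aspscr1 (0.971).

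With the mean of each group removed, the likeness is that between mice of a group. Nr2f1 was then most like Flt4 (r = 0.952 over 8 libraries), the lymphatic growth factor receptor gene, Spg20 (0.941) and 5430416N02Rik (0.926). Flt4 held 2.30, 3.62, 3.74 and 2.95 FPKM in Nr2f2 d/d replicates 1 to 4, high in replicates 2 and 3 like Nr2f1. In Nr2f2 f/f it held 2.97, 2.99, 2.48 and 2.32 FPKM, overlapping with Nr2f2 d/d. Flt4 is also on the lists of lymphatic and of vascular genes. Nr2f2 was most like Ovgp1 (0.983), an oviduct gene, Tacc2 (0.979) and Lamp2 (0.975), which all had their lowest Nr2f2 d/d value in replicate 3. Nr2f6 was most like Chst2 (0.994), D730005E14Rik (0.990) and Mon1a (0.989).

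Marker lists of uterine and other cell types were summed in each library, and those of stroma, epithelium and smooth muscle were high in all 8 libraries of this uterine tissue. The counts of all these lists, here and in the next paragraph, stand against 2.62% of all tested genes called and 21.2% at an unadjusted p under 0.05 (8.66% higher and 12.5% lower). Uterine stroma markers summed to 1464 to 1688 FPKM in Nr2f2 f/f against 1950 to 3448 FPKM in Nr2f2 d/d, but 5 of the 10 markers had higher and 5 lower estimates, with Dcn called higher and Hand2 lower. The sum rests on Col1a1, Col6a1 and Dcn, whose means were 433, 312 and 294 FPKM higher in Nr2f2 d/d. Without these 3 genes, an alternative chosen after the values were seen, it was at 730 to 905 FPKM in Nr2f2 f/f uteri and lower, at 632 to 703 FPKM, in Nr2f2 d/d. The lower sum of these 7 genes rests on Vim, at 380 ± 93.1 and 237 ± 44.3 FPKM (SD, n = 4 each, limma adjusted p = 0.113), and without Vim as well the sums overlapped, at 348 to 454 and 356 to 471 FPKM. Epithelial markers summed to 789 to 828 and 1038 to 1138 FPKM, with 2 of 10 called, both higher, and 5 at an unadjusted p under 0.05 in limma. Of the 10, 8 had higher and 2 lower estimates. Between the group means the sum rose by 288 FPKM, Krt19 by 98.5 FPKM and Krt8 by 77.85 FPKM. Epcam, Krt18, Cldn4 and Foxa2 stood in Nr2f2 d/d at 95.02% to 102.5% of their Nr2f2 f/f means. Smooth muscle markers overlapped, at 1384 to 1957 and 1128 to 2718 FPKM, with 0 of 10 called or at an unadjusted p under 0.05 in limma. Endothelial markers went the way of Nr2f2, from 352 to 478 FPKM down to 223 to 278 FPKM, with 6 of 10 called, all lower. With 1 library left out, 0 were called without Nr2f2 d/d replicate 1 or 2, 1 without Nr2f2 f/f replicate 1 or 4, and 4 to 6 in the other fits. The called stroma and mesothelial markers did not hold in every such fit either, with 0 to 3 and 0 to 1 called, while Krt8 of the epithelial list passed in 8 of 8. The part of these lists in the level of Nr2f2 was not tested.

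Lymphatic markers summed to 9.70, 14.2, 11.5 and 9.66 FPKM in Nr2f2 f/f against 12.3, 17.2, 17.2 and 11.95 FPKM in Nr2f2 d/d, with Ccl21a listed at 0 throughout and 0 of 4 tested markers called in limma (1 at an unadjusted p under 0.05). Within Nr2f2 d/d, replicates 2 and 3 had the highest sums, and they also had the highest Nr2f1. Single markers differed in this. Flt4, Reln and Prox1 were highest in replicates 2 and 3, but Pdpn and Lyve1 were not. In Nr2f2 d/d replicates 1 to 4, Pdpn held 7.23, 6.935, 9.73 and 4.05 FPKM. Lyve1 held 1.925, 4.95, 2.25 and 3.69 FPKM there. Mesothelial markers summed to 136 to 172 FPKM and 218 to 312 FPKM, with 1 of 7 called (Msln, in 1 of 8 fits that left out 1 library) and 6 at an unadjusted p under 0.05, all 6 higher in Nr2f2 d/d. Of the 115 FPKM between the group means, 98.5 FPKM are those of Krt19, a keratin gene that is also on the epithelial list. Without Krt19, likewise chosen after the values were seen, the sums overlapped, at 72.7 to 101 FPKM in Nr2f2 f/f uteri and 92.6 to 116 FPKM in Nr2f2 d/d, with 3 Nr2f2 d/d uteri above all Nr2f2 f/f uteri. Msln, Upk3b, Gpm6a, Lrrn4 and Upk1b had log2 fold changes of 0.80, 0.66, 0.47, 0.46 and 0.33, and Wt1, the exception, was at 40.5 ± 8.46 and 32.2 ± 2.79 FPKM (SD, n = 4 each). Leukocyte markers were at 53.4 to 78.9 and 69.9 to 119 FPKM, with 0 of 8 called in limma and 3 at an unadjusted p under 0.05. Markers of ovary and oviduct were at 16.5 to 34.3 and 11.2 to 61.1 FPKM, lowest in Nr2f2 d/d replicate 3, with 0 of 3 called in limma and 1 at an unadjusted p under 0.05. Most of the mean sum in each group was Ovgp1, at 35.7, 38.35, 2.41 and 53.7 FPKM in Nr2f2 d/d replicates 1 to 4. Foxj1 of the same list was highest in replicate 3, at 2.21 FPKM against 0.261 to 0.304 FPKM in the other Nr2f2 d/d libraries. The part of these lists in the level of Nr2f1 was not tested.

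**Figure D5:**
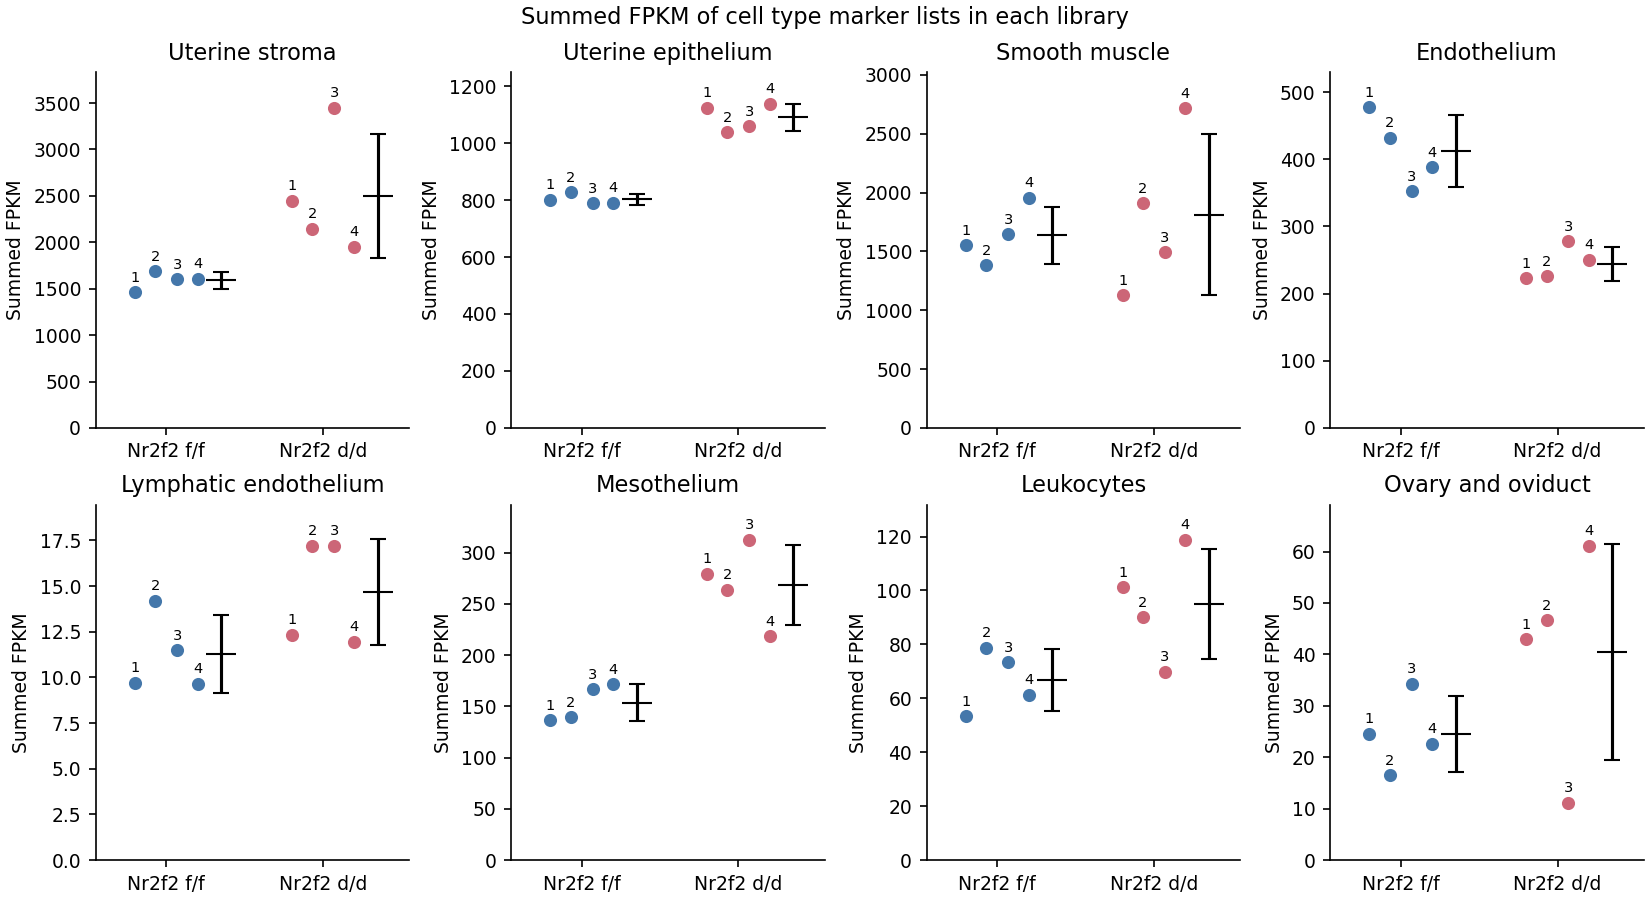
Summed FPKM (vertical axes, each from 0) of 8 cell type marker lists in each library. Points are single libraries with their replicate number and the bar is the mean with its SD. Endothelial sums are lower in all Nr2f2 d/d libraries, stromal, epithelial and mesothelial sums are higher, and the other 4 lists overlap. Most of the rise in FPKM comes from Col1a1, Col6a1 and Dcn in the stromal sum and from Krt19 in the mesothelial sum. In the epithelial sum, Krt19 and Krt8 rose most.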

How the data were processed

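Groups and replicate numbers 1 to 4 came from the sample titles, and columns were matched to mice by the label that repeats the column name. The authors filtered 76-bp paired-end reads, trimmed them with cutadapt 1.12, aligned them to mm10 with STAR 2.5.2b and counted fragments per gene with featureCounts 1.5.0-p1. They deposited FPKM for 24963 genes. The annotation, the strand setting and the role of Cufflinks, which the submitters' processing notes list, are not given in the sources used here. The authors' DESeq2 test needs counts, so limma 3.58.1 in R 4.3.3 (mean-variance trend, two-sided, Benjamini-Hochberg) was run on log2(FPKM + 0.5), a scale that understates changes of low genes. It was tested on simulated data. Exact permutation tests were two-sided over 70 arrangements. Python 3.11.15 was used for the rest.

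The members and lists were chosen with earlier results of these data known. Genes named with values are the members, Pgr and Hand2, the 2 nearest genes on each side of each member and the overlapping ones, the 3 smallest p in each list and the 3 most alike by each measure. Rxra, Zfpm1, Zfpm2, Bmp2, Dcn, Col1a1, Col6a1, Vim, Cyp26a1, Krt8 and the mesothelial markers are named outside this rule and were chosen after their values were seen. The same holds for Pdpn, Lyve1, Reln, Prox1, Foxj1, Epcam, Krt18, Cldn4 and Foxa2. Symbols matched GENCODE vM21 for 24378 genes. A protein table was not used here, so no protein sequence is printed. Each library is 1 mouse.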

Additional observations from a re-analysis of the deposited data

Results flagged for a closer look

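Groups of 4 were searched for a library that stands apart from the other 3 by Dixon's test, which picks out about 1 in 20 groups by chance. Of 112 groups searched, 4 held such a library. Nr2f2 in Nr2f2 d/d replicate 3 was at 6.90 FPKM, with the other 3 between 9.42 and 9.74 FPKM. Lamp2, which was chosen for its likeness to Nr2f2, was at 57.7 FPKM in the same library, with the others between 92.1 and 98.3 FPKM. Foxc1 in Nr2f2 f/f replicate 2 was at 1.29 FPKM, with the others between 0.986 and 1.02 FPKM. Aspscr1, chosen for its likeness to Nr2f6, was at 18.8 FPKM in Nr2f2 f/f replicate 2, with the others between 21.6 and 21.7 FPKM.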

How the results depend on the processing

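Across other added values, filters, scalings and eBayes settings, the log2 fold change was 0.80 to 1.25 for Nr2f1 (adjusted p 0.0106 to 0.0241), -1.43 to -1.34 for Nr2f2 (0.00442 to 0.00698) and 0.14 to 0.22 for Nr2f6 (0.298 to 0.474). With the replicate block by title number, the calls of Nr2f1 (1.00, adjusted p = 0.117) and Nr2f2 (-1.39, 0.0714) were lost and 1 gene passed the adjusted threshold. In this balanced block the estimates are the same by construction. The ratios Nr2f1 over Nr2f2, Nr2f6 over Nr2f2 and Nr2f6 over Nr2f1 were 2.78, 1.64 and -1.14 with an exact sign-flip permutation p = 0.125, the smallest 4 pairs allow. With the block by column number, Nr2f1 was at 0.93 (0.103), Nr2f2 at -1.32 (0.0619), and 0 genes passed. Same-numbered mice did not deviate together (r = -0.204 to 0.0453 by title number). By column number r was -0.204, 0.149 and -0.0403, and 1 of 3 pairs was over 0.1, so the mice were taken to share only a number. With each library left out, the Nr2f1 log2 fold change was 0.92 to 1.09, that of Nr2f2 -1.44 to -1.28, and the count of genes past the adjusted threshold was 42 to 348, against 375. It was lower by over 1.5 times without Nr2f2 d/d replicate 1 (57) or 2 (42) and without Nr2f2 f/f replicate 1 (62), 3 (208) or 4 (95). Of 25 other named genes, 4 near 0 changed sign. These were Fam172a (-0.0325 with the block by column number), Use1 (-0.0343 with quantile normalization), Babam1 (-0.0297 with quantile normalization and -0.0667 with the block by column number) and Nr2c1, and with each library left out Nr2c1 reached -0.0443 to 0.0687, Fam172a -0.0288 to 0.0813, Use1 -0.0626 to 0.157 and Babam1 -0.0619 to 0.0641. Hand2 missed the threshold with no filter (adjusted p = 0.0514), and Hand2 and Nrp2 did with either block. Ptch1 and Crabp2 passed without Nr2f2 d/d replicate 4 (-1.45 and 3.83), Foxc1 without Nr2f2 d/d replicate 3 (0.87) and Cyp26b1 without Nr2f2 f/f replicate 2 (1.68). Median-ratio scaling made 191 higher and 185 lower calls, against 156 and 219. Nr2f1 rests on the fewest fragments of the 3 paralogs, and the exact permutation tests cannot go below 0.0286.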
